A study of Mus musculus with 2 samples.

Results

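The genes described here are 8 of the 31053 in the count tables: the type II keratins Krt7 and Krt8, the type I keratins Krt18 and Krt19, the adhesion molecule Epcam and the claudins Cldn3, Cldn4 and Cldn7. They were taken by symbol, all 8 were found, and their unique molecular identifiers (UMIs, each standing for 1 tagged transcript) were summed by cell class in both libraries, with ductal-like set against acinar-like barcodes. The study, whose title concerns osteoglycin from fibroblasts in pancreatic cancer, profiled the pancreas after pancreatitis in single cells sorted as EYFP positive or EYFP negative, with 1 library each. Both libraries came from mice of the strain background C57Bl/6J with the genotype R26[CA]30EYFP, and the treatment label reads None for both. That genotype is a Rosa26 reporter in which a CA repeat keeps EYFP out of frame until the repeat changes in length. EYFP itself is not among the genes of the table, and its level could not be used to check the sort. Neither the number and age of the animals nor the time since pancreatitis is stated in the labels. With 1 library per group there was no test, and every interval below is an exact 95% interval for counting error only.

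Simple epithelia, such as the lining of the pancreatic ducts, fill their cytoplasm with filaments built from 1 type I and 1 type II keratin. Krt8 with Krt18 is the basic pair of the pancreatic epithelium, and Krt7 and Krt19 are added in duct cells. Epcam is a membrane protein of epithelial cells that binds its like on neighbouring cells and associates with Cldn7. Claudins are the strand proteins of tight junctions that set how tightly a sheet of cells is sealed. After pancreatitis, acinar cells are known to take on duct-like features, and keratin expression is a common readout of that change.

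In GENCODE M21 (GRCm38), Krt7 (ENSMUSG00000023039) lies at chr15:101411043-101430313 on the plus strand, Krt8 (ENSMUSG00000049382) at chr15:101996698-102004482 on the minus strand and Krt18 (ENSMUSG00000023043) at chr15:102028180-102032027 on the plus strand. Krt8 and Krt18 are 23.7 kb apart. Krt19 (ENSMUSG00000020911) lies with other type I genes at chr11:100140810-100148665 on the minus strand. Epcam (ENSMUSG00000045394) is at chr17:87635979-87651129 and Cldn7 (ENSMUSG00000018569) at chr11:69964779-69967885, both on the plus strand. Cldn3 (ENSMUSG00000070473), at chr5:134986214-134987472 on the plus strand, and Cldn4 (ENSMUSG00000047501), at chr5:134945119-134946934 on the minus strand, are 39.3 kb apart. All 8 are annotated as protein coding.

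Upstream sequences were searched for short runs of letters, and the genes were not chosen for going together cell by cell. RefSeq (GRCm38.p6) gave start sites for 7 of the 8 genes, and the 250 bases before each were searched on both strands. The E-box CACCTG, which the epithelial repressors of the Snail and Zeb families are known to bind, was present for 6 of the 7 genes, and was found in 17.2% of 32851 such windows in the table. For Cldn7 it was at the second of 2 start sites, and Cldn3 had none. The GC box GGGCGG was found for 5 of the 7 genes against 32.7% of windows, the AP-1 letters TGANTCA for 1, Cldn4, against 6.75%, and the TATA letters TATAAA for none (0 of 7) against 12.4%. A match of letters is a description of the window and not a binding site. The stretches below run from chr15:102027966-102028179 (Krt18, plus strand, 214 bases), chr17:87635729-87635978 (Epcam, plus strand, 250 bases), chr5:134985964-134986213 (Cldn3, plus strand, 250 bases) and chr5:134946935-134947184 (Cldn4, minus strand, 250 bases). They are written 5′ to 3′ with each E-box in capitals, and Cldn3 stands there as the one without.
Krt18: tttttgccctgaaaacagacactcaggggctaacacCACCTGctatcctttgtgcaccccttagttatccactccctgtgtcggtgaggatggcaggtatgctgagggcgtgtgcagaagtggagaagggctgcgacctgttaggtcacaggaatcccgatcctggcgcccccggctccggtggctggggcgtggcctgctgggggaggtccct
Epcam: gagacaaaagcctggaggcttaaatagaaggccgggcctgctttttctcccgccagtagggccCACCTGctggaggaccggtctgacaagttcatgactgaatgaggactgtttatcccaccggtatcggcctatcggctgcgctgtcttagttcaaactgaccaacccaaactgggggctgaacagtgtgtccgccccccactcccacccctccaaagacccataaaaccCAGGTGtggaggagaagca
Cldn3: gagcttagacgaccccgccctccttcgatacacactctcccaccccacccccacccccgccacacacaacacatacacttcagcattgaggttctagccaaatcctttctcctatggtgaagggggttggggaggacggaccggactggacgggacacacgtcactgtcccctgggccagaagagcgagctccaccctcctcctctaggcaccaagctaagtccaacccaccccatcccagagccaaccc
Cldn4: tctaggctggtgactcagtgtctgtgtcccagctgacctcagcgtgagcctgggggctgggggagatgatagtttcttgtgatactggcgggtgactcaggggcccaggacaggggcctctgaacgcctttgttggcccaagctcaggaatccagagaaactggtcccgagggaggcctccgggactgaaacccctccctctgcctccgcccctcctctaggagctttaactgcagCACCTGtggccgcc

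The EYFP positive library held 1717 barcodes with 4006807 UMIs and the EYFP negative library 745 with 5295816. A barcode was kept if it held 200 genes or more and no more than 20% of its UMIs were mitochondrial. This left 860 EYFP positive and 553 EYFP negative cells, at median depths of 1007.5 UMIs in the EYFP positive and 8020 UMIs in the EYFP negative library. Clusters were built without the 8 genes, so that the classes do not rest on them, although the genes that do define the classes come from the same cells. The ductal-like class held 221 EYFP positive and 2 EYFP negative cells, and the acinar-like class 122 and 1. Of the 14 ductal markers, 13 had UMIs in EYFP positive ductal-like cells and Tff1 was at 0, against 10 in acinar-like cells, and all 22 acinar markers had UMIs in both classes. The classes differed in level: ductal markers summed to 25895 CPM in ductal-like and 3389 CPM in acinar-like cells, and acinar markers to 11786 CPM in ductal-like and 272088 CPM in acinar-like cells. The libraries shared 4 barcodes, whose EYFP negative copies ranked 1, 2, 4 and 5 by UMIs in that library (37662 to 70711 UMIs) while their EYFP positive copies held 845 to 1058. One shared barcode is ductal-like in both libraries, with 9 UMIs of the 8 genes in its EYFP positive and 492 in its EYFP negative copy, so results that rest on it are given with and without it.

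The ductal-like class was made of 2 clusters that differed in depth. The deep cluster, led by Spp1, Clu and Cp, held 28 EYFP positive cells of 5000 to 90166 UMIs (median 16888) and the 2 EYFP negative cells of 12527 and 70711 UMIs. The shallow cluster, led by Spp1, Clu and Apoe, held 193 cells, all EYFP positive, at a median depth of 766 UMIs. One shallow cell of 53707 UMIs had 21498 UMIs of Ppy, the pancreatic polypeptide hormone, and 41 UMIs of the 8 genes, 20 of them Epcam and 8 Krt7. It is left out where stated. The acinar-like class also had 2 clusters: 66 cells led by the secretory genes Try4, Try5 and Ctrl (median 1047.5 UMIs), and 56 cells led by Rbpjl, an acinar transcription factor, and Nupr1 (median 2136 UMIs). Acinar markers summed to 482028 CPM in the secretory cluster but 48820 CPM in the Rbpjl cluster. The latter is near the 43424 CPM of shallow ductal-like cells without the Ppy cell. Ductal markers summed to 5730 CPM in the secretory and 899 CPM in the Rbpjl cluster.

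All 8 genes were higher in ductal-like than in acinar-like cells of the EYFP positive library. Together they held 5319 UMIs in ductal-like and 91 UMIs in acinar-like cells. Scaled to 1000000 UMIs per class (CPM), that is 6379 CPM in ductal-like and 312 CPM in acinar-like cells, a fold of 20.4 (16.6 to 25.4). All 8 passed 2-fold, but so did 51.3% of the 9320 genes with at least 10 UMIs in both classes together. The median log2 fold of the 8 was 4.57 with 0.5 UMIs added to each count, against 1.15 over all those genes. From the folds as listed below, with Cldn4 at its bound, the median of the 8 was 4.34. When the total was taken without acinar secretory genes and without mitochondrial and ribosomal ones, which removed 25.8% of ductal-like and 57.0% of acinar-like UMIs, the all-gene median shifted by -0.78 and the fold of the 8 was 11.9, with 8 of 8 still past 2-fold against 31.6% of genes. With the 0.5 UMIs added and the full total, the median of the 8 stood 3.42 above that of all genes on the log2 scale. The gene-by-gene levels below are UMIs as counted, not divided by transcript length, and differences in capture between genes were not corrected.

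Among the type II keratins, Krt8 had 1368 UMIs in 142 of 221 ductal-like cells and 37 UMIs in 25 of 122 acinar-like cells, which is 1641 CPM against 127 CPM and a fold of 12.9 (9.33 to 18.4). This was the smallest fold of the 7 genes with acinar UMIs. Krt7, which marks ducts and other simple epithelia, had 136 UMIs in 29 ductal-like cells and 1 UMI in 1 acinar-like cell, a fold of 47.6 (8.39 to 1892). The single acinar UMI makes the upper end of that interval wide. Krt7 was also uneven within the ductal-like class, since 8 of its 16 shallow UMIs came from the Ppy cell.

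Among the type I keratins, Krt18, the partner of Krt8, had the most UMIs of the 8 genes in ductal-like cells. It had 1453 UMIs in 139 ductal-like cells and 27 UMIs in 21 acinar-like cells (1743 against 92.6 CPM), a fold of 18.8 (12.9 to 28.7). Krt19, the smallest keratin and a usual duct marker, had 230 UMIs in 46 ductal-like cells and 1 UMI in 1 acinar-like cell, a fold of 80.4 (14.3 to 3190). The acinar level of Krt7 and of Krt19, 3.43 CPM each, rests on 1 UMI. Under a filter of 500 genes and 10% mitochondrial UMIs the folds were 4.08 (2.41 to 7.37) for Krt7, the smallest of the 8, and 8.84 (5.06 to 16.9) for Krt19. The intervals of Krt8 and Krt18 overlap, and so do those of Krt7 and Krt19.

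Epcam had 1049 UMIs in 108 ductal-like cells and 5 UMIs in 5 acinar-like cells, which is 1258 against 17.1 CPM and a fold of 73.4 (31.3 to 226). Its interval lay above those of Krt8 and Krt18 with the classes as named. Under a filter of 500 genes and 10% mitochondrial UMIs the 3 intervals overlapped, with folds of 7.97 (6.17 to 10.5) for Epcam, 7.65 (6.13 to 9.65) for Krt8 and 6.73 (5.49 to 8.32) for Krt18.

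Cldn3 and Cldn7 gave folds close to those of the Krt8 and Krt18 pair. Cldn3, a sealing claudin, had 606 UMIs in 101 ductal-like cells and 13 UMIs in 9 acinar-like cells (727 against 44.6 CPM), a fold of 16.3 (9.46 to 30.8). Cldn7, the claudin that associates with Epcam, had 438 UMIs in 70 ductal-like cells and 7 UMIs in 4 acinar-like cells (525 against 24.0 CPM), a fold of 21.9 (10.5 to 54.7). Cldn4 was the scarcest member, with 39 UMIs in 20 ductal-like cells and 0 in acinar-like cells. Against a floor of 3 UMIs in the acinar sum it was at least 4.55-fold higher in ductal-like cells.

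**Figure D1:**
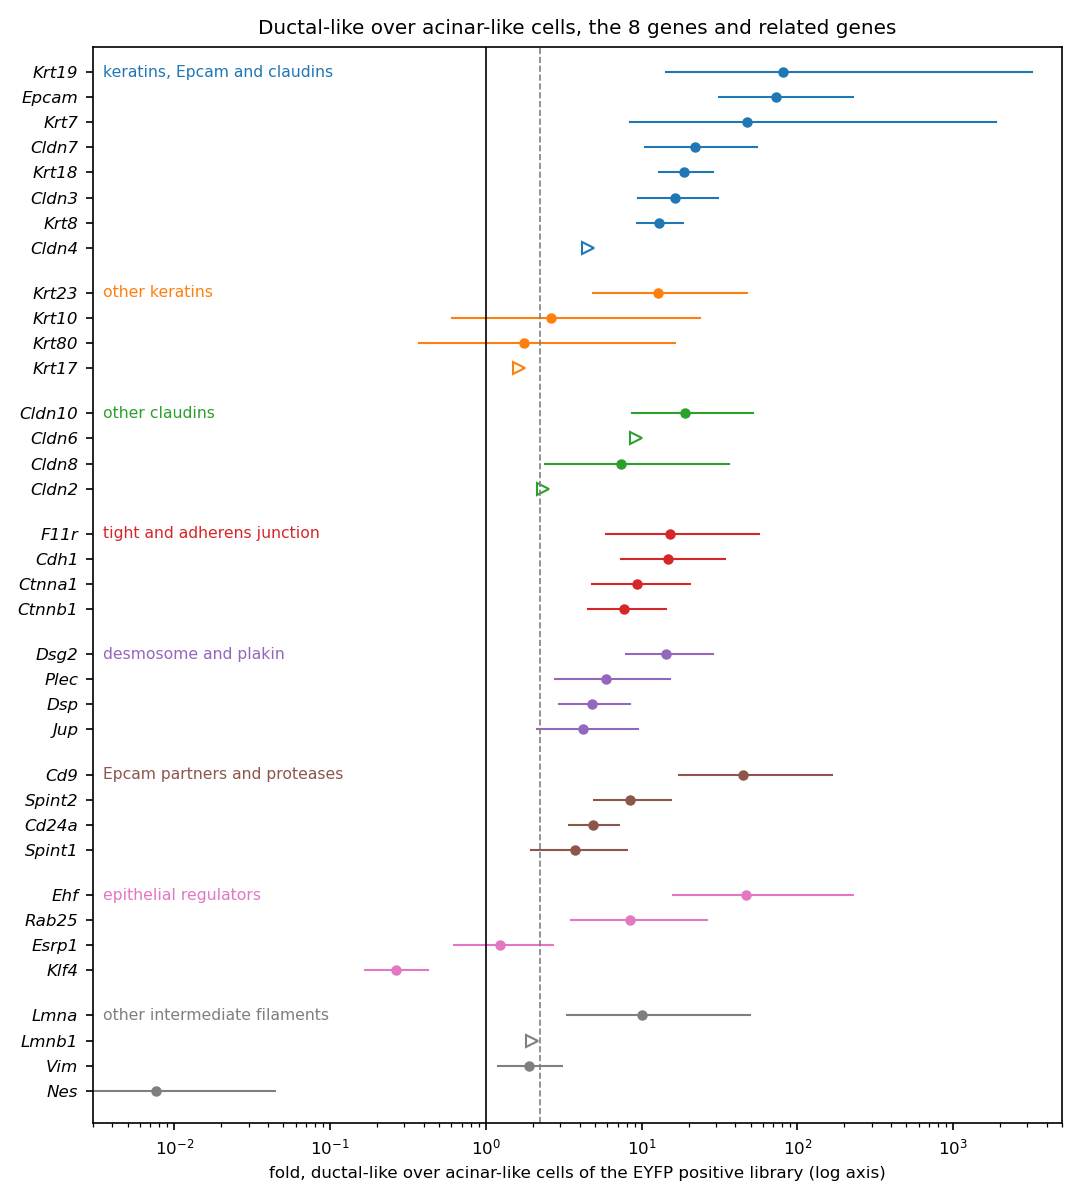
Fold of ductal-like over acinar-like cells of the EYFP positive library on a log axis, for the 8 genes and up to 4 genes of each related list. Points are folds with 95% counting intervals (bars clipped at the edge of the plot), open triangles are lower bounds against a floor of 3 UMIs, the solid line is 1 and the dashed line the median of all genes; the 7 genes with a full interval lie above that median, from 12.9 for Krt8 to 80.4 for Krt19, while Nes and Klf4 lie below 1.

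The size of these folds depended on which cells were called acinar-like. At a clustering resolution of 2.0, 57 of the shallow ductal-like cells took the acinar-like name and the fold of the 8 together was 8.61. It was 8.13 when the libraries were clustered separately and 11.3 when single cells were classed by their marker UMIs. It was 6.88 under a filter of 500 genes and 10% mitochondrial UMIs. Of the 99 acinar-like cells under that filter, only 36 had been acinar-like before and 38 had been ductal-like. The ductal-like class then held 28 cells. All 8 genes remained at least 2-fold higher in ductal-like cells in each of these settings.

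The 57 reassigned cells held more acinar marker RNA, and the 8 genes took a smaller share of their UMIs. Clusters are named by such markers, so the acinar excess follows from the naming. Their acinar markers summed to 94248 CPM, 4.13 times the 22839 CPM of the other 135 shallow cells (without the Ppy cell). The 8 genes summed to 3366 CPM (170 UMIs, 2879 to 3912) in the 57 cells and 4226 CPM (527 UMIs, 3873 to 4603) in the other 135, a ratio of 0.796 (0.666 to 0.949). The acinar marker RNA is part of these totals, and its part in the lower share was not tested. Krt8 had 44 UMIs in the 57 cells and 139 in the other 135, Krt18 50 and 156, Epcam 30 and 94, Cldn3 26 and 71, and Cldn7 12 and 40. Krt19 had 3 and 19, Krt7 3 and 5, and Cldn4 2 and 3. The 2 groups had like depths, with medians of 749 UMIs in the 57 cells and 768 UMIs in the other 135. The doublet caller marked 0 ductal-like and 0 acinar-like cells, but it marked only 2 of 860 EYFP positive and 5 of 553 EYFP negative cells in all, and the cause of the mixed transcripts was not tested.

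Within the ductal-like class the 8 genes took a larger share of the UMIs of deep cells than of shallow cells. They summed to 7574 CPM in the 28 deep EYFP positive cells and 3978 CPM in the 192 shallow cells without the Ppy cell, a fold of 1.90 (1.76 to 2.06). Krt8 stood at 1954 against 1044.5 CPM, Krt18 at 2053 against 1176 CPM, and Epcam at 1496 against 708 CPM. By the fold itself Cldn3 differed least, at 835 against 554 CPM (1.51, 1.21 to 1.89), and Krt7 most, at 198 against 45.7 CPM (4.34, 2.14 to 10.3). For Cldn4 the interval of the fold, 0.766 to 6.45, included 1. Shallow cells also held more acinar marker RNA, at 43424 CPM without the Ppy cell against 3558 CPM in deep cells, and more T cell marker RNA, at 793 CPM in shallow against 8.27 CPM in deep cells and 6903 CPM in T-like cells. The part of this other RNA in the lower keratin and claudin levels was not tested.

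**Figure D2:**
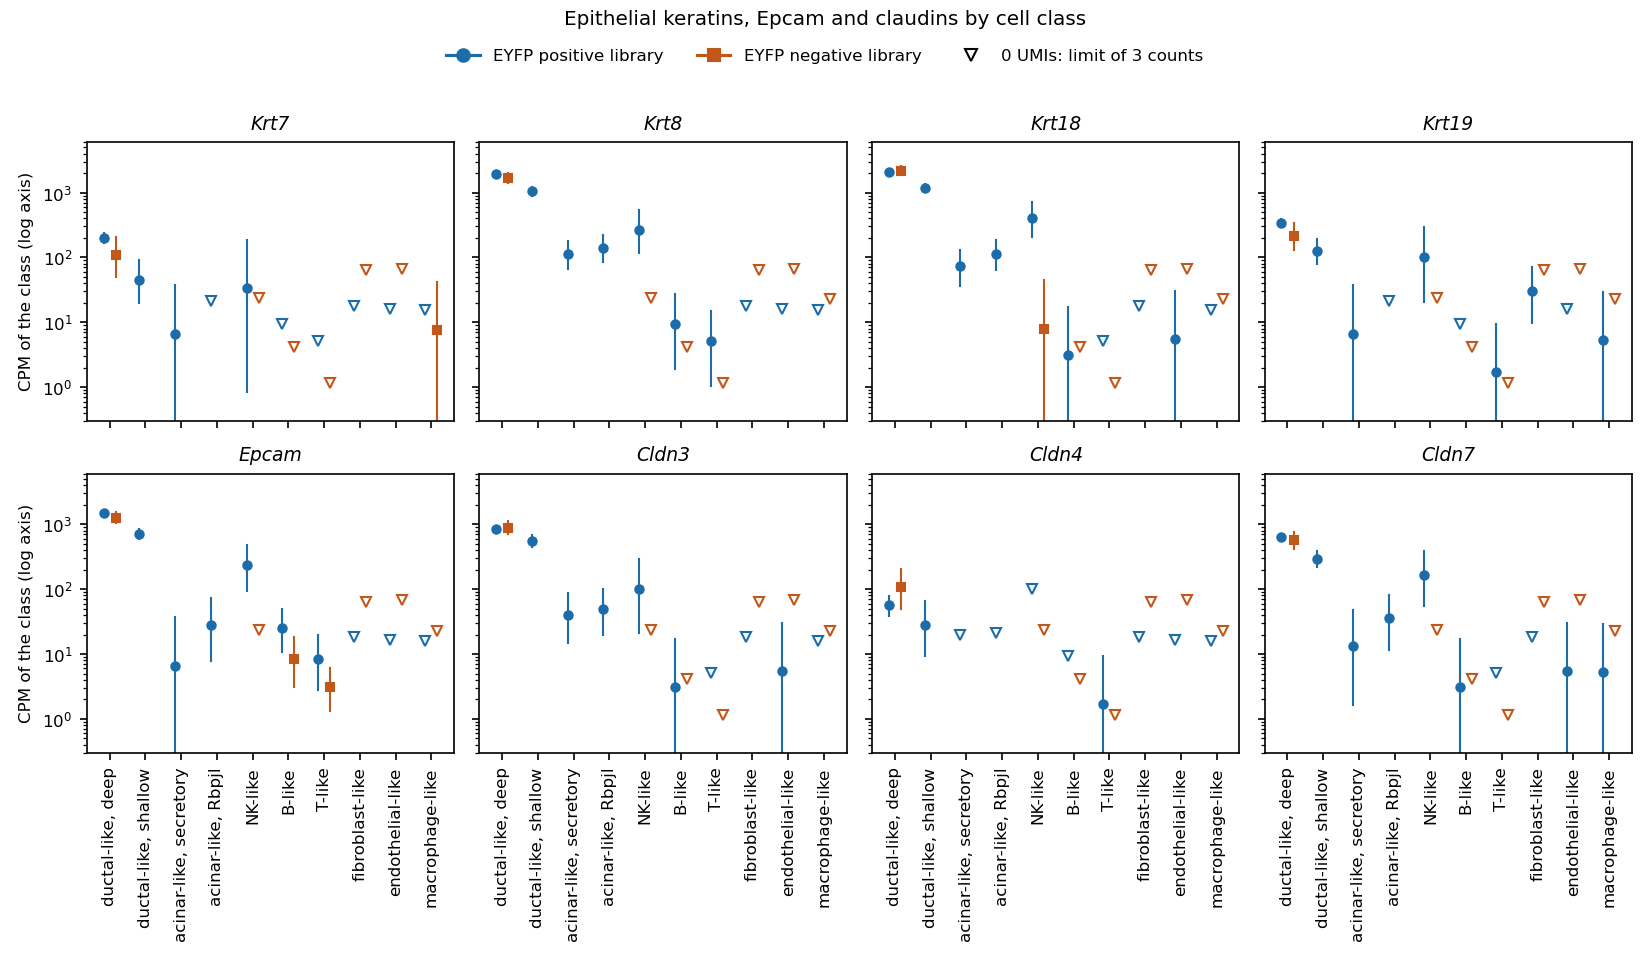
CPM of each gene in the summed UMIs of a class (log axis), with circles for the EYFP positive and squares for the EYFP negative library; bars are 95% counting intervals, cut at the lower edge, and open triangles mark 0 UMIs at the limit of 3 counts. Classes of at least 2 cells are shown, the shallow ductal-like cells without the Ppy cell, and the highest measured level of each gene is in the deep ductal-like cells.

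Single deep cells showed how constant each gene was. Among the 28 deep EYFP positive cells, Krt8 ran from 448 to 3580 CPM (median 1915), Krt18 from 511 to 2861 CPM (median 1998) and Epcam from 497 to 3200 CPM (median 1566), and each was found in all 28. Cldn3 ran from 355 to 1800 CPM (median 832) and Cldn7 from 213 to 1105 CPM (median 711), also in all 28. Krt19 ran from 0 to 1049 CPM (median 276) with UMIs in 26 cells, Krt7 from 0 to 715 CPM (median 148) in 21 cells, and Cldn4 from 0 to 230 CPM (median 35.01) in 15 cells. The cell highest for Krt7 was also the highest for Krt19. All 8 genes were found in 12 of the 28 cells, and the median cell had 7.

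**Figure D3:**
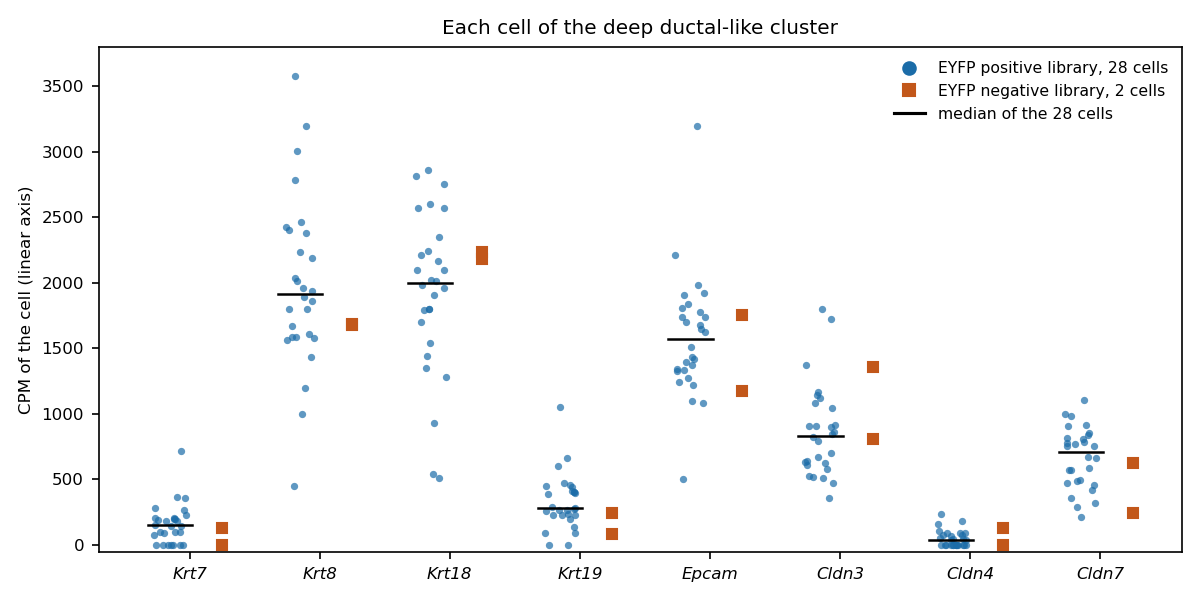
CPM of each of the 8 genes in every cell of the deep ductal-like cluster (linear axis), with circles for the 28 EYFP positive cells, lines at their medians and squares for the 2 EYFP negative cells. Krt8, Krt18 and Epcam lie highest, with medians of 1915, 1998 and 1566 CPM, and the EYFP negative cells fall within the range of the others.

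Krt8 and Krt18 went together cell by cell. Across the 28 cells the CPM of Krt8 and Krt18 had a Pearson r of 0.68 and a Spearman rho of 0.50, the highest of the 28 gene pairs by either measure. The ratio of Krt8 to Krt18 UMIs ran from 0.662 to 2.33 with a median of 1.02. Epcam and Krt18 had an r of 0.11, and Krt7 and Krt8 an r of 0.04. These cells share 1 library, and much of the spread of the less counted genes is counting error, with an expected coefficient of variation of 121% for Cldn4 and 66.5% for Krt7 from counting alone, against 128% and 96.3% observed. For Krt8 the observed value was 33.4% against 18.8% from counting. In the 193 shallow cells both keratins were seen in 74, Krt8 alone in 40, Krt18 alone in 37 and neither in 42.

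Acinar-like cells held low amounts of some of the 8 genes. Thinned to 500 UMIs per cell, with no cell too shallow to enter, 15 of 122 acinar-like cells (12.3%, 7.05 to 19.5) had a UMI of any of the 8, against 2 of 181 T-like cells (1.10%, 0.134 to 3.93) and 2 of 113 B-like cells (1.77%, 0.215 to 6.25). Lymphocytes should lack these genes, yet 9 of 32 NK-like cells of the same library (28.1%, 13.7 to 46.7) also had a UMI. Not thinned, the shares were 36.9% of acinar-like, 5.52% of T-like, 8.85% of B-like and 43.8% of NK-like cells, at medians of 1525.5, 1317, 1355 and 803 UMIs. Acinar-like cells also held 3389 CPM of ductal marker RNA (5730 CPM in the secretory and 899 CPM in the Rbpjl cluster), against 102 CPM in T-like cells. The part of this RNA in these counts was not tested. In ductal-like cells the share was 192 of 221 (86.9%, 81.7 to 91.0) thinned and 94.1% not thinned.

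**Figure D4:**
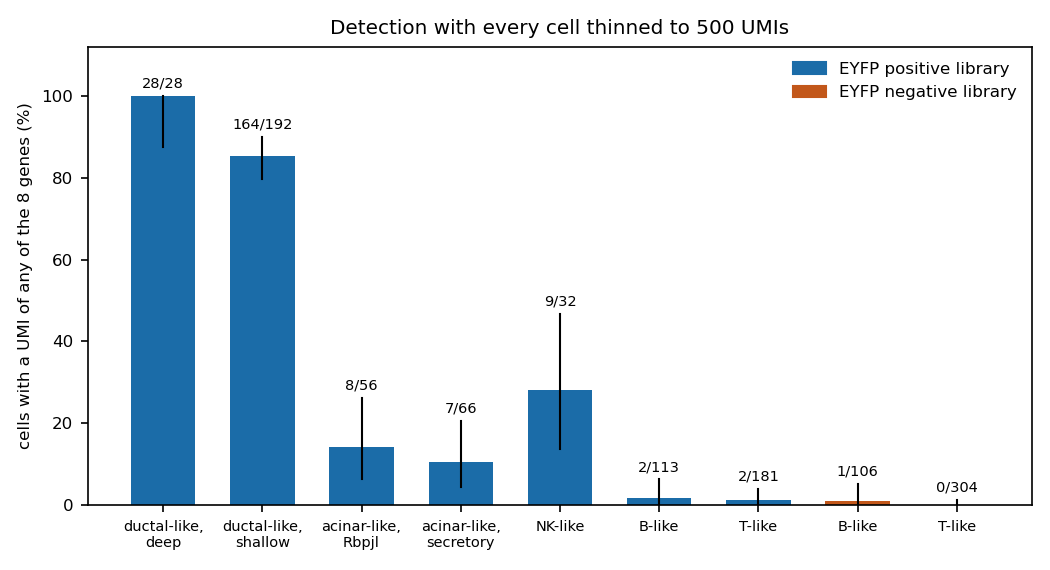
Percent of cells with a UMI of any of the 8 genes after thinning each cell to 500 UMIs, with exact 95% intervals and the counts of cells above the bars. All 28 deep and 164 of 192 shallow ductal-like cells were positive, against 8 of 56 and 7 of 66 cells in the acinar-like clusters and at most 2 cells in each B-like or T-like group. The NK-like bar stood above those of the acinar-like clusters.

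The acinar UMIs were mostly Krt8, Krt18 and Cldn3. Krt8 stood at 127 CPM in acinar-like and 5.08 CPM in T-like cells, a fold of 24.99 (7.91 to 127). NK-like cells were at 269 CPM of Krt8 (8 UMIs, 116 to 530), with an interval that overlaps that of acinar-like cells (127 CPM, 89.4 to 175). Their Krt18 stood higher than in acinar-like cells, at 404 CPM (12 UMIs, 209 to 705) against 92.6 CPM (61.0 to 135). In 1 B-like cluster Krt8 was at 47.1 CPM on 3 UMIs. Krt18 was at least 18.2-fold higher in acinar-like than in T-like cells, which had 0 UMIs, Cldn3 at least 8.78-fold and Cldn7 at least 4.73-fold. Epcam was not separated from the lymphocytes, at 17.1 CPM in acinar-like and 8.46 CPM in T-like cells (2.03, 0.466 to 8.81). Between the acinar-like clusters, the 8 genes summed to 368 CPM in the Rbpjl cluster (52 UMIs) and 259.5 CPM in the secretory cluster (39 UMIs), and the interval of that fold, 1.42 (0.918 to 2.21), included 1. Of the 8 genes, 3 had at least 10 UMIs in both acinar-like clusters together, and 0 of these 3 were past 2-fold in the Rbpjl cluster (Krt8 1.25, Krt18 1.55 and Cldn3 1.24), against 73% of 2596 genes. Epcam (4 against 1 UMIs) and Cldn7 (5 against 2 UMIs) had fewer. The full total was used here, and acinar markers took 482028 CPM of the secretory cluster against 48820 CPM of the Rbpjl cluster. Their part in the 73% and in the fold of 1.42 was not tested.

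Set per Krt8 UMI, acinar-like cells held fewer Epcam UMIs than ductal-like cells with the classes as named. Epcam had 0.135 UMIs per Krt8 UMI in acinar-like cells, against 0.767 in ductal-like cells, a ratio of 0.176 (0.0539 to 0.452). At the ductal ratio 28.4 Epcam UMIs would stand beside the 37 acinar Krt8 UMIs, where 5 were counted. The ratio was 0.261 (0.0647 to 0.784) for the Rbpjl cluster and 0.0769 (0.00184 to 0.492) for the secretory cluster, both against deep ductal-like cells. Krt19 was also low per Krt8, at 0.0270 against 0.168, a ratio of 0.161 (0.00395 to 0.964), but its interval reached 1.49 when only the shallow ductal-like cells were taken. For Krt18 the ratio was 0.687 (0.400 to 1.17), for Cldn3 0.793 (0.384 to 1.54) and for Cldn7 0.591 (0.221 to 1.36), and these intervals, like those of Krt7 and Cldn4, include 1. The Epcam difference depended on which cells were called acinar-like. Of the 99 acinar-like cells under the filter of 500 genes and 10% mitochondrial UMIs, 36 had been acinar-like and 38 ductal-like before. In settings chosen after seeing the data, the Epcam ratio was 0.960 (0.674 to 1.36) under that filter, from 63 Epcam and 85 Krt8 UMIs in acinar-like cells. It was 0.562 (0.364 to 0.853) at resolution 2.0, 0.548 (0.362 to 0.816) with libraries clustered separately and 0.615 (0.381 to 0.973) with cells classed by their marker UMIs.

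Spp1, a secreted phosphoprotein and duct marker, is a leading gene of both ductal-like clusters, so its ratio to Krt8 is partly set by how the classes were made. It had 83 UMIs beside 37 Krt8 UMIs in acinar-like cells, 2.24 per Krt8 UMI, against 9.60 in ductal-like cells, a ratio of 0.234 (0.156 to 0.356). In the Rbpjl cluster it was 0.850 Spp1 UMIs per Krt8 UMI against 9.70 in deep ductal-like cells, a ratio of 0.0876 (0.0430 to 0.177). In the secretory cluster the ratio was 0.400 (0.231 to 0.730). Clu, another leading gene of those clusters, had a ratio of 0.612 (0.412 to 0.928) in acinar-like against ductal-like cells, but 0.960 (0.622 to 1.503) against the shallow ductal-like cells alone. Against deep ductal-like cells the Clu ratio was 0.247 (0.127 to 0.482) in the Rbpjl cluster and 0.969 (0.562 to 1.76) in the secretory cluster. Sox9, a transcription factor of duct and duct-like acinar cells, had 27 UMIs in the Rbpjl cluster and 5 in the secretory cluster (191 against 33.3 CPM). Per Krt8 UMI, Sox9 was not lower in acinar-like than in ductal-like cells beyond counting error, with a ratio of 1.26 (0.755 to 2.097). Against deep ductal-like cells the Sox9 ratio was above 1 in the Rbpjl cluster, at 1.94 (1.041 to 3.68). In the secretory cluster it was 0.423, with an interval (0.122 to 1.201) that includes 1.

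**Figure D5:**
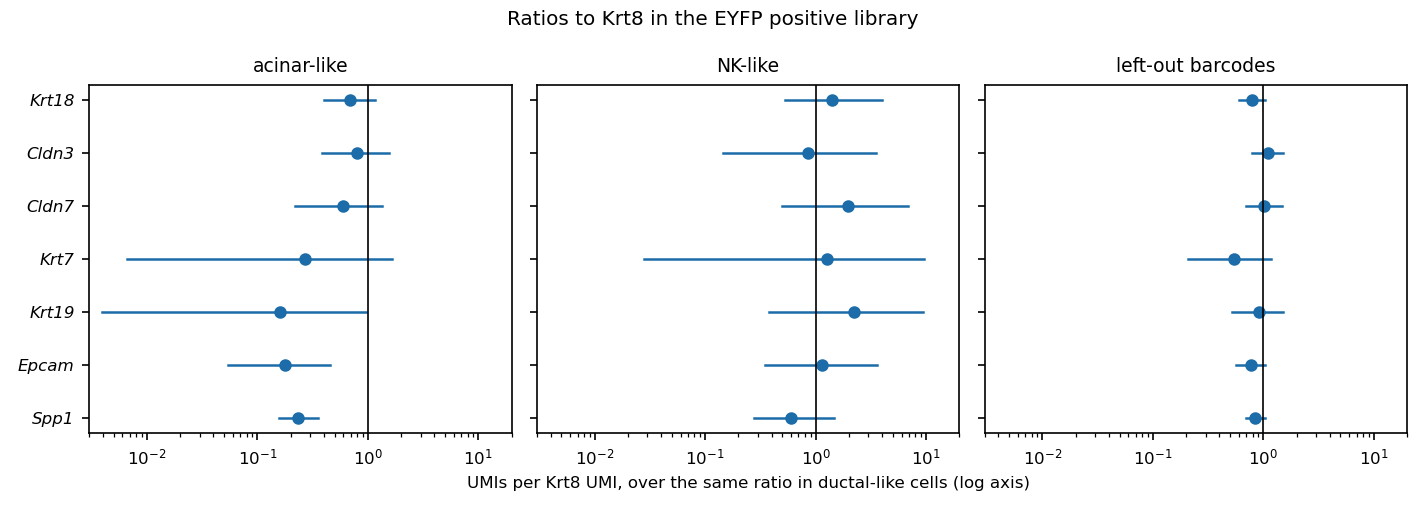
UMIs of each gene per Krt8 UMI in 3 groups of EYFP positive barcodes, divided by the same ratio in ductal-like cells (log axis), with 95% counting intervals and a line at 1. In acinar-like cells Epcam (0.176), Krt19 (0.161) and Spp1 (0.234) lie below 1, while in NK-like cells and left-out barcodes every interval drawn includes 1. The NK-like ratios rest on 8 Krt8 UMIs. Cldn4, Clu and Sox9 are not drawn.

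Outside the epithelium the 8 genes were rare. Ductal-like cells held 5319 of the 5484 UMIs of the 8 genes in kept EYFP positive cells (97.0%), acinar-like cells 91 (1.66%) and all other cells 74 (1.35%). By gene, the ductal-like share ran from 95.4% for Krt19 to 98.6% for Krt7. The exception was a cluster of 32 NK-like EYFP positive cells (median 803 UMIs, led by Ccl5, Ncr1 and Xcl1), with 39 UMIs of the 8 genes in 14 cells, or 1311 CPM (933 to 1793). The EYFP negative NK-like cluster of 14 cells had 1 UMI. The EYFP positive NK-like cells also held 2959 CPM of ductal marker RNA, against 102 CPM in T-like cells, and 23673 CPM of acinar marker RNA, against 4810 CPM in T-like cells. Their ratios of the other 7 genes and of Spp1 to Krt8 had intervals that include 1 against ductal-like cells, while Sox9, at 0 UMIs, had an interval of 0 to 0.857. These ratios rest on 8 Krt8 UMIs, and their intervals are wide, such as 0.351 to 3.61 for Epcam. The part of ductal or acinar RNA in these counts was not tested.

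Epcam had more UMIs than the other 7 genes in lymphocytes of the EYFP negative library. In the EYFP negative library, outside the ductal-like and acinar-like cells, Epcam had 20 UMIs in 18 of 550 cells, with 8 in 7 T-like cells (3.08 CPM, median depth 8572.5 UMIs) and 6 in 5 B-like cells (8.36 CPM, median depth 5602.5 UMIs). Krt8, Krt19, Cldn3 and Cldn7 had 0 UMIs in the same cells, Krt18 had 2, and Krt7 and Cldn4 had 1 each. In the EYFP positive library B-like cells held 8 Epcam UMIs in 7 of 113 cells (24.8 CPM) and T-like cells 5 in 5 of 181 (8.46 CPM). Krt19 was found in 1 fibroblast-like EYFP positive cell of 16844 UMIs, which held all 5 Krt19 UMIs of that class, 637 UMIs of fibroblast markers, 1 of mesothelial markers and 0 of the other 7 genes.

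Between the libraries, all 8 genes were higher in the EYFP positive one. They summed to 1998 CPM in EYFP positive and 125 CPM in EYFP negative cells, a fold of 15.9 (14.6 to 17.4), and 8 of 8 passed 2-fold against 26.8% of 13282 genes. The folds ran from 7.08 (3.48 to 15.9) for Cldn4 to 24.4 (12.9 to 52.0) for Krt7. Krt8 was at 517 against 28.8 CPM (17.9, 15.1 to 21.5) and Krt18 at 544 against 38.1 CPM (14.3, 12.3 to 16.7). In a whole-library sum, fewer cells of a type and less RNA per cell cannot be told apart, so the classes were counted, and 221 of 860 EYFP positive cells and 2 of 553 EYFP negative cells were ductal-like. The 2 EYFP negative cells held 584 of the 609 UMIs (95.9%) of the 8 genes in their library. Without the shared barcodes the fold was 79.1 (65.8 to 95.8), since 492 of those UMIs belonged to 1 shared barcode.

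Within deep ductal-like cells the libraries were close. The 8 genes summed to 7574 CPM in the 28 EYFP positive cells and 7016 CPM in the 2 EYFP negative cells, a fold of 1.08 (0.990 to 1.18), with 0 of 8 past 2-fold against 11.3% of 8299 genes. Krt8 was at 1954 against 1682 CPM (1.16, 0.974 to 1.39), Krt18 at 2053 against 2187 CPM (0.939, 0.803 to 1.10) and Epcam at 1496 against 1261 CPM (1.19, 0.968 to 1.47). Every gene's interval included 1, the widest being those of Cldn4 (0.244 to 1.23) and Krt7 (0.935 to 4.11). Without the shared barcode 1 EYFP negative cell of 12527 UMIs was left, with 92 UMIs of the 8 genes and a fold of 1.03 (0.839 to 1.28). Krt19 (4.31, 0.765 to 171) and Cldn7 (2.66, 0.903 to 12.9), or 2 of 8, were then past 2-fold, against 2.21% of 7923 genes, on 1 and 3 UMIs in that cell. Genes with 0 UMIs in that cell were set at 3 UMIs, which makes 2-fold harder to reach than from 1 UMI. The share of all genes is therefore no measure of an excess among the 8. An interval that includes 1 over 2 cells does not show that the libraries were alike.

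Most other measured junction and adhesion genes were also higher in ductal-like than in acinar-like cells. These lists were described by counts among genes with at least 10 UMIs in ductal-like and acinar-like EYFP positive cells together, to be read against the 51.3% of genes at least 2-fold higher and 8.82% at least 2-fold lower. Of 15 other keratins 4 were measured and 2 were higher: Krt23 had 146 UMIs against 4 (12.8, 4.88 to 47.5), and Krt10 had 15 against 2, with an interval (0.610 to 23.6) that includes 1. Krt17 (14 against 0 UMIs) and Krt80 (10 against 2) did not pass. Of 17 other claudins, 16 were in the count tables and 6 measured, of which 4 were higher. Cldn10, an ion-pore claudin, had 326 UMIs against 6 (19.0, 8.64 to 52.2), Cldn6 had 79 against 0 (at least 9.21), Cldn8 63 against 3 (7.34, 2.40 to 36.6) and Cldn2 20 against 0 (at least 2.33). None of these other 4 keratins and 6 claudins was 2-fold lower.

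Of 19 tight and adherens junction genes 17 were higher and 0 lower in ductal-like cells. Cdh1, which encodes E-cadherin, had 336 UMIs against 8 (14.7, 7.37 to 34.3), its partner Ctnnb1 310 against 14 (7.74, 4.55 to 14.3), Ctnna1 239 against 9 (9.29, 4.81 to 20.6) and F11r, a junctional adhesion molecule, 175 against 4 (15.3, 5.87 to 56.8). Of 12 desmosome and plakin genes, which anchor keratin filaments to the membrane, 10 were higher. Dsg2 led with 450 UMIs against 11 (14.3, 7.92 to 28.9), while Dsp, the plakin that binds keratins, was lower in fold at 233 against 17 (4.79, 2.93 to 8.37), as were Plec at 5.94 (2.80 to 15.1) and Jup at 4.20 (2.13 to 9.42). Of 9 Epcam partners and proteases 8 were higher, led by the tetraspanin Cd9 at 515 UMIs against 4 (45.0, 17.5 to 166), then Cd24a at 4.88 (3.44 to 7.12), and the protease inhibitors Spint2 at 8.37 (4.92 to 15.5) and Spint1 at 3.74 (1.96 to 8.03). With the other total 15 of 19 junction genes were higher and 1 lower, and 6 of 12 desmosome and plakin genes and 7 of 9 Epcam partners and proteases were higher, against 31.6% of genes. With that total 1 of 4 other keratins and 3 of 6 other claudins were higher.

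The regulators did not move as one. Of 9 measured epithelial regulators 5 were higher and 1 lower in ductal-like cells, against 51.3% and 8.82% of all genes. Their median log2 fold was 1.36 with 0.5 UMIs added to each count, or 1.48 without, against 1.15 over all genes. With the other total 3 were higher, against 31.6% of genes, and 2 lower. With either total the count of higher regulators was near the share over all genes. Ehf, an epithelial ETS factor, had 399 UMIs against 3 (46.5, 15.8 to 226) and Rab25, an epithelial trafficking GTPase, 120 against 5 (8.39, 3.498 to 26.3). The splicing factor Esrp1 was within its counting error at 39 against 11 UMIs (1.24, 0.623 to 2.68). Klf4 was lower, at 35 against 46 UMIs and 42.0 against 158 CPM (0.266, 0.166 to 0.422). Of 4 other intermediate filament genes Lmna, a lamin of the nucleus, was higher at 86 against 3 UMIs (10.0, 3.32 to 49.6), Vim stood at 124 against 23 (1.89, 1.201 to 3.08), Lmnb1 had 17 UMIs against 0, and Nes, a filament protein of progenitor cells, was lower at 1 against 46 UMIs (0.00760, 0.000188 to 0.0445). All 46 acinar Nes UMIs and all 46 acinar Klf4 UMIs lay in the Rbpjl cluster, at 326 CPM each, and the secretory cluster had 0 of both.

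Across the 10 class-by-library sums of at least 20 cells, the genes most like the mean of the 8 on the scale log2(CPM + 10) were Onecut1, a duct transcription factor (r = 0.998), Tm4sf4 and Bche, out of 9366 genes. Krt8 was most like Dsp (r = 0.99), Prr15l and Cdh1, Epcam most like Bche (r = 0.98), Cdh1 and Ocln, and Cldn3 and Cldn7 shared Tm4sf4 among their 3 nearest genes (r = 0.99 each). Krt18 was most like Map3k21, AI661453 and Serinc2, Krt7 like Pdzk1ip1, Ambp and Wfdc15b, Krt19 like Pdgfc, Gata6 and Rsph9, and Cldn4 like Slc39a4, Pcsk2 and Slc28a3. Several of these have few UMIs, such as Serinc2 with 44 in ductal-like cells and 3 in acinar-like cells. The ductal-like sum kept the Ppy cell, which held all 120 ductal-like Pcsk2 UMIs and 0 Cldn4 UMIs. The 10 points share 2 libraries and their depths, with 1 class far above the rest, and the likeness is a description only.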

How the data were processed

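Droplet single-cell RNA libraries of EYFP positive and EYFP negative pancreatic cells were compared, 1 each. Per the labels' protocols they were made with a Chromium Single Cell 5′ v1.1 kit and sequenced on a lane each. Whether the barcodes fit a 5′ or a 3′ kit was left in doubt, so which transcript end the UMIs count is treated as unknown. The deposited values are UMI counts per gene and barcode, not normalised by the authors. The submitters' processing notes name Cell Ranger 2.1.0 and GRCh38, while the file headers name software version 3.1.0 and the genes carry mouse Ensembl IDs, and which build the reads were mapped to was therefore left as unknown. Positions are those of GENCODE M21 (GRCm38), looked up by gene ID, and upstream sequences those of RefSeq (GRCm38.p6).

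The 8 genes and the lists were chosen with earlier results of these data known. Of the barcodes, 857 of 1717 EYFP positive and 192 of 745 EYFP negative ones were left out, 758 and 150 of them for holding under 200 genes. Kept cells were clustered without the 8 genes in scanpy 1.11.5 (genes in 3 or more cells, scaling to 10000 UMIs, log1p, 2000 variable genes, 30 components, 15 neighbours, Leiden resolution 1). A cluster took the type with the largest share of its markers past the limits, when at least 3 of them reached 2-fold against other cells of the same library and at least 20% of its cells, with more markers of that type than of any other among its 10 leading genes. That rule was the last of 4 versions written after the clusters were seen, and 14 of 17 clusters were named. Scrublet doublets were kept.

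Counts were summed per class and divided by the class total. Fold intervals are exact conditional binomial, levels exact Poisson and shares Clopper-Pearson (scipy 1.17.1), all at 95%. A zero was set at a floor of 3 UMIs over the class sum. Medians of log2 folds over a list were taken with 0.5 UMIs added to each count, unless stated. Cells are not replicates and no p-value was computed. For detection, each cell was thinned to 500 UMIs. Tested on simulated data for the ductal-like over acinar-like comparison, intervals held the true fold for 97% of 100 genes at 4-fold, 100% of 100 genes at 0.25-fold and 96.8% of 9120 unchanged genes. The simulated class sums were Poisson counts, which the intervals assume. That check covers the calculation only, since spread between cells was not simulated. Genes named were the 8, up to 4 per list with the most UMIs in both classes, and the 3 most like each of the 8 and their mean, among genes of at least 50 UMIs. Alternatives changed the filter, total, cell weighting, depth, resolution, class rule and barcodes used. Scaling cannot separate a change in 1 gene from a change in the rest of a cell's RNA.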

Additional observations from a re-analysis of the deposited data

Results flagged for a closer look

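A signal lay in barcodes that the comparisons do not use. The 857 left-out EYFP positive barcodes held 455 UMIs of the 8 genes, or 361 CPM (328 to 395), in 99 barcodes, while the 192 left-out EYFP negative barcodes held 2 UMIs, or 4.56 CPM, in 2 barcodes. The left-out EYFP positive barcodes held 131 Krt8, 110 Krt18, 77 Epcam, 64 Cldn3, 43 Cldn7, 20 Krt19, 7 Krt7 and 3 Cldn4 UMIs. Against ductal-like cells, the ratio of each of the other 7 genes to Krt8 had an interval that includes 1, such as 0.767 (0.564 to 1.04) for Epcam, and so had that of Spp1, at 0.846 (0.698 to 1.03). The median left-out barcode had 847 UMIs in the EYFP positive and 1007.5 UMIs in the EYFP negative library. The source of these UMIs was not tested.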

How the results depend on the processing

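No paired analysis was possible because each group had 1 library and no test was made. All 123 ductal-like over acinar-like folds and 71 library folds of single genes under the alternatives stayed above 1, from 2.12 to 436 and from 3.22 to 407, and 6 had no usable value because of too few UMIs or a zero: Krt7 in cells thinned to 500 UMIs and in cells of 500 to 2000 UMIs, and Cldn4 in both of these, as a mean over cells and between the thinned libraries. The ductal-like over acinar-like fold of the summed genes, 20.4 as reported, was 6.88 under the filter of 500 genes and 10% mitochondrial UMIs, 11.9 with the other total, 15.7 as a mean over cells, 8.61 at resolution 2.0, 8.13 with libraries clustered separately and 11.3 with cells classed by their marker UMIs. Chosen after seeing the data, it was 10.3 with the shallow ductal-like cluster alone and 15.99 in cells of 500 to 2000 UMIs (187 ductal-like cells of median 758 UMIs and 72 acinar-like cells of median 754.5 UMIs). All 8 genes passed 2-fold except that 7 did as a mean over cells, 6 thinned to 500 UMIs and 6 in cells of 500 to 2000 UMIs. At resolution 2.0, 57 of 179 acinar-like cells were shallow ductal-like as reported, so the acinar class itself changed. Under the stricter filter 38 of 99 acinar-like cells were ductal-like and 36 acinar-like as reported. Of the related lists, 47 of 63 genes were higher and 2 lower; 4 were lower under the stricter filter, 4 with the other total and 4 as a mean over cells, and thinned to 500 UMIs 15 were higher, with fewer genes measured. The EYFP positive over EYFP negative fold, 15.9 as reported, was 17.5 under the stricter filter, 39.1 as a mean over cells, 14.3 without the top cell of each gene, 24.8 thinned to 500 UMIs, where 7 of 8 genes passed 2-fold, 12.8 over every deposited barcode and, chosen after seeing the data, 79.1 without shared barcodes. The share with any of the 8 genes was 86.9% of ductal-like cells at 500 UMIs, 96.1% at 1000 UMIs and 94.1% not thinned. It was 12.3% of acinar-like cells at 500 UMIs, 28.4% at 1000 UMIs, 36.9% not thinned, and, at 500 UMIs, 34.6% at resolution 2.0, 44.2% with libraries clustered separately and 25.5% with cells classed by their marker UMIs. Chosen after seeing the data, acinar-like over ductal-like Epcam per Krt8 UMI, 0.176 as reported, ran from 0.192 when clustered with the 8 genes to 0.960 under the stricter filter. Removing doublets could not change the ductal-like over acinar-like fold of 20.4, since 0 ductal-like and 0 acinar-like cells were marked. Depth limits Krt7, Krt19 and Cldn4 most, with 1 acinar-like UMI or fewer.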
